A study of Homo sapiens with 18 samples.

Results

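The EGFR family comprises the receptor tyrosine kinases EGFR, ERBB2, ERBB3 and ERBB4 and a set of growth factors that bind them. The 10 genes described here are these 4 receptors and 6 ligands, namely AREG, EREG, HBEGF, TGFA, BTC and NRG1. Every probe with one of these symbols was taken, whatever its values. Of the 21111 probes (19289 symbols) measured in 3 triple-negative breast cancer (TNBC) cell lines, 18 probes belonged to these 10 genes, with 6 for NRG1, 2 each for AREG, HBEGF and TGFA, and 1 for each of the others. BT549, Hs578T and SUM149PT are established lines from human breast tumors, the first pair described by the study as mesenchymal-like and SUM149PT as basal-like, and all described as carrying extra copies of ASAP1. Each was transfected with 50 nM of a SMARTpool against ASAP1 (siASAP1), an Arf GTPase-activating protein, or with siCtrl, and lysed after 72 h, with 3 libraries per group and 18 in all. According to the methods, siCtrl is a pool of siRNAs against kinases. All 4 receptors belong to the kinase family, and the members of the pool were not listed in the sources used here. The study reports that the pool does not significantly alter the expression of individual kinase genes. Each type of tumor cell is thus represented by 1 or 2 lines, and the siRNA pools were not compared with an untransfected state.

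Ligands of this family are made as precursors anchored in the cell membrane and are shed by ADAM proteases. AREG, EGF and TGFA bind EGFR, whereas HBEGF, BTC and EREG bind both EGFR and ERBB4, and NRG1 binds ERBB3 and ERBB4. Ligand binding drives receptors into dimers, for which ERBB2, a receptor with no known ligand, is the favored partner, while ERBB3 has little kinase activity of its own and recruits PI3K. Active dimers signal through RAS and ERK and through PI3K and AKT. EGFR is commonly expressed in TNBC, which by definition lacks amplified ERBB2, and AREG and HBEGF are themselves induced by this signaling.

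TempO-Seq ligates a pair of detector oligos on each target RNA and counts the product by sequencing, so that each probe reports on one small piece of its transcript. Probes differ in efficiency, and levels were therefore compared for the same probe between libraries and not between genes. Values are given as normalized counts (reads divided by the size factor of the library), and tests were run on log2(normalized count + 1). In such bulk lysates, fewer cells that make a transcript and less RNA per cell cannot be told apart. Libraries held 4.63 to 12.5 M reads (median 6.63 M).

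The silenced gene itself was checked first. In BT549 the ASAP1 probe read 944, 966 and 1107 normalized counts in siCtrl and 367, 730 and 783 in siASAP1 libraries. In Hs578T it read 1414, 1641 and 2698 in siCtrl and 782, 825 and 1262 in siASAP1 libraries. In SUM149PT it read 1087, 189 and 1314 in siCtrl replicates 1 to 3 and 282, 468 and 184 in siASAP1 replicates 1 to 3. The siASAP1 means were 62.3%, 49.9% and 36.1% of the siCtrl means in BT549, Hs578T and SUM149PT. The log2 fold changes were -0.75, -0.98 and -1.16 (limma adjusted p = 0.65, 0.91 and 0.66). ASAP1 itself thus met the limits used below (unadjusted p under 0.05 and absolute log2 fold change over 1) in no line. The groups did not overlap in BT549 and Hs578T, whereas the library labelled SUM149PT siCtrl replicate 2 held less ASAP1 than 2 of the 3 siASAP1 libraries and went against its label. Effects of siASAP1 in SUM149PT are therefore also given without this library. Of the markers, the epithelial EPCAM read 29532, 19.0 and 1.72 (mean in siCtrl libraries of SUM149PT, Hs578T and BT549) and the mesenchymal VIM (VIM_18185) read 2622, 151320 and 32100. The mesenchymal FN1_27231 read 854, 18667 and 6643 in the same order. CDH2, also of the mesenchymal list, read 1733, 4010 and 325, and was thus higher in SUM149PT than in BT549. The basal keratin KRT14 was at or near 0 in SUM149PT although KRT17 and KRT5 were read there, and the ZEB1 probe was at or near 0 in all lines. PGR, for the progesterone receptor, was at or near 0 in all lines, as were both ESR1 probes (estrogen receptor) in BT549. One of them, ESR1_12234, read a mean of 39.6 in SUM149PT and 11.2 in Hs578T. The blood marker PTPRC and the muscle marker DES were at or near 0 in all lines, while PECAM1_14079 read 77.6 in SUM149PT and ACTA2 read 14.7 to 38.5 in siCtrl libraries.

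**Figure D1:**
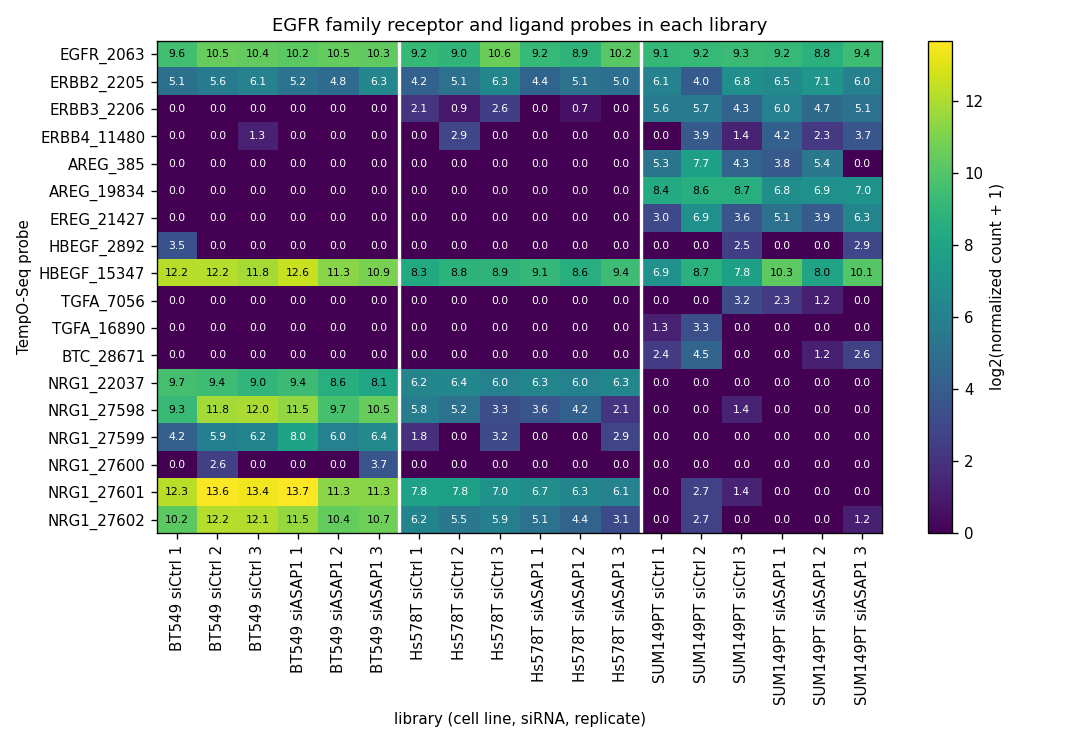
The 18 probes (rows) in the 18 libraries (columns, by cell line, siRNA and replicate), with color and printed value giving log2(normalized count + 1). AREG and EREG are read in SUM149PT and stand at 0 in every BT549 and Hs578T library, NRG1 is read in BT549 and Hs578T, and EGFR, ERBB2 and HBEGF_15347 are read in all 18 libraries.

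Of the 18 probes, 12 (7 of the 10 genes) passed the limit of a mean normalized count of at least 10 over the 18 libraries. Within BT549, Hs578T and SUM149PT, 8, 7 and 7 probes passed. The 6 probes that passed in none were ERBB4_11480 with 51 reads over the 18 libraries, BTC_28671 with 31, NRG1_27600 with 21, HBEGF_2892 with 16, TGFA_16890 with 11 and TGFA_7056 with 9. ERBB4 reached at most 17.2 normalized counts, in a SUM149PT siASAP1 library, and the TGFA and BTC probes had reads only in SUM149PT. Since HBEGF_2892 was nearly silent in BT549, where HBEGF_15347 averaged 4324 normalized counts, a low value of a single probe does not show that the gene is silent.

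The ligand genes AREG, EREG and BTC lie on the long arm of chromosome 4. In the GENCODE release 29 annotation of GRCh38, EREG spans chr4:74365143-74388751 on the plus strand and AREG chr4:74445134-74455009 on the plus strand, 56.4 kb further on. BTC follows 289.8 kb after AREG on the minus strand. HBEGF spans chr5:140332843-140346631 on the minus strand and EGFR chr7:55019021-55211628 on the plus strand.

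RefSeq promoter windows (GRCh38.p14) matched 8 of the 10 genes. The 250 bases before the start site are shown for AREG and EREG, neighbors read in SUM149PT alone, and for HBEGF, which was read in all lines. The windows are chr4:74444886-74445135 (plus strand), chr4:74364895-74365144 (plus strand) and chr5:140346604-140346853 (minus strand). Capitals mark matches on either strand to a cyclic AMP response element (TGACGTCA), a TATA box (TATAAA), an AP-1 site (TGANTCA) or a GC box (GGGCGG).
AREG: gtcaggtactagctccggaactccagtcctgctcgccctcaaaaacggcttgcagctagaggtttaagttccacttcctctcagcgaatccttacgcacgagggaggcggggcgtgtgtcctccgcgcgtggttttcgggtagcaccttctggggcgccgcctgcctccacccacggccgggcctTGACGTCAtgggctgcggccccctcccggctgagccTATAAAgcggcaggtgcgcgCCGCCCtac
EREG: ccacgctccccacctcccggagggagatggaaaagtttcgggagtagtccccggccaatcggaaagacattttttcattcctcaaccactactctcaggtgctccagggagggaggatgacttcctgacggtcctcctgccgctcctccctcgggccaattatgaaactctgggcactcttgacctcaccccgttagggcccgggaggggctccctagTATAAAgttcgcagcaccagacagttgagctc
HBEGF: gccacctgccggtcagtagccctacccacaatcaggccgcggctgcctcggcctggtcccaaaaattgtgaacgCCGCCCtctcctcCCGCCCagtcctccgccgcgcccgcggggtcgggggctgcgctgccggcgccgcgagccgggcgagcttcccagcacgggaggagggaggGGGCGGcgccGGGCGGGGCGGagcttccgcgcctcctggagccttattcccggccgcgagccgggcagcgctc
The AREG window held 1 TGACGTCA, at -65 from the start site, which 1.65% of the 35116 RefSeq windows of this length hold, 1 TATAAA at -29 and 1 GC box at -9. The EREG window also held 1 TATAAA, at -32 (10.7% of windows), and none of the other motifs. The HBEGF window held 5 GC boxes, of which the last pair overlap by 1 base, and no TATAAA. A GC box stood in 42.6% of all windows and TGANTCA in 6.57%, the latter in none of these 3. Such matches are letters in the reference sequence, and binding was not measured.

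The levels of the receptors in siCtrl libraries were compared first. EGFR read 759, 1480 and 1361 normalized counts in BT549 (mean 1199.7 ± 387, SD, n = 3), 581, 494 and 1592 in Hs578T (mean 889 ± 610) and 559, 579 and 636 in SUM149PT (mean 591 ± 40.1). Replicate 3 of Hs578T stood far above the other 2, and it did so with siASAP1 as well (1166 against 582 and 476). The mean was 2.03-fold higher in BT549 than in SUM149PT, a log2 difference of -0.96 for SUM149PT minus BT549 (SE 0.47, limma adjusted p = 0.20), and although the 3 libraries of these lines did not overlap, no pair of lines passed an adjusted p of 0.05. In the siASAP1 libraries the same difference was -1.22 (SE 0.36, limma adjusted p = 0.032). By the siCtrl means the order of the lines was BT549, Hs578T, SUM149PT, and neighbors in it overlapped. The place of Hs578T above SUM149PT rested on replicate 3, since the medians were 581 and 579. Without that library the log2 difference of SUM149PT minus Hs578T turned from -0.38 to 0.14.

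ERBB2 read 32.4, 47.8 and 66.6 normalized counts in BT549, 17.7, 34.3 and 75.9 in Hs578T and 65.8, 14.6 and 110.3 in SUM149PT. The 3 ranges overlapped, the widest being that of SUM149PT, whose lowest value was the library that went against its label. No pair of lines differed (limma adjusted p = 0.78 to 0.99), and the 95% confidence interval of SUM149PT minus BT549 reached from -1.79 to 1.84 on the log2 scale. ERBB3, the NRG1 receptor that recruits PI3K, had no read in any of the 6 BT549 libraries. It read 47.2, 51.0 and 19.2 in SUM149PT and 3.38, 0.816 and 4.93 in Hs578T, the latter from 1 to 5 reads per library. SUM149PT was thus at least 15.2-fold above the 3-read floor of BT549 (per library, averaged over the group) and 12.9-fold above Hs578T (log2 difference 3.36). Since ERBB3 passed the limit on low counts through SUM149PT alone, this is given as a description with no test. ERBB4 read 0, 13.7 and 1.60 in SUM149PT, with the highest value again in replicate 2, and at most 6.53 in siCtrl libraries of the other lines.

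**Figure D2:**
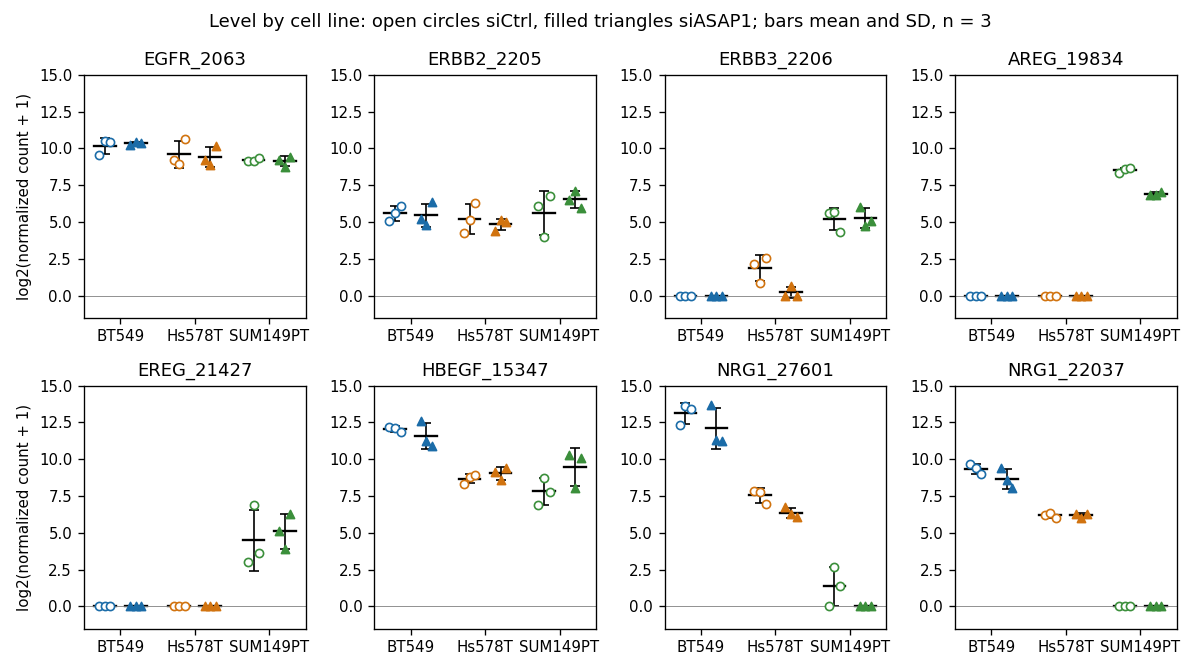
Levels of 8 probes as log2(normalized count + 1) (y axis) in the 3 cell lines (x axis), with 1 point per library, open circles for siCtrl, filled triangles for siASAP1, and bars for the mean and SD (n = 3). ERBB2 overlaps between all lines, EGFR is higher in every BT549 than in every SUM149PT library, AREG_19834 and EREG_21427 are read in SUM149PT alone, and HBEGF_15347 and NRG1_27601 are highest in BT549.

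Among the ligands, AREG and EREG were read in SUM149PT alone, and they too passed the limit on low counts through that line, so their differences are described without a test. AREG_19834 read 326, 379 and 401 normalized counts in the SUM149PT siCtrl libraries and 0 in all 12 libraries of BT549 and Hs578T. The 3 SUM149PT values lay within a narrow range (mean 369 ± 38.6, SD, n = 3), at least 143-fold above the floor of BT549 and at least 139-fold above that of Hs578T. The second probe, AREG_385, read 37.2, 211 and 19.2 in SUM149PT and 0 in the other lines. EREG likewise read 7.15, 116 and 11.2 in SUM149PT and 0 in the other lines, with a mean at least 17.3-fold above the BT549 floor. For both of these probes replicate 2, the library that went against its label, held most of the counts. Without it the log2 difference to BT549 was 4.80 for AREG_385 and 3.32 for EREG_21427, against 5.77 and 4.50 with it. BTC read 4.29, 21.0 and 0 in SUM149PT and 0 elsewhere, so that its highest value too was in replicate 2.

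HBEGF showed another order. HBEGF_15347 read 4764, 4545 and 3662 normalized counts in BT549, 318, 453 and 483 in Hs578T and 120, 428 and 216 in SUM149PT. BT549 did not overlap with either of the other lines and was 10.3-fold above Hs578T (log2 difference -3.38 for Hs578T minus BT549, SE 0.45, limma adjusted p = 0.00061) and 17.0-fold above SUM149PT (-4.26, SE 0.45, limma adjusted p = 0.00010). Hs578T and SUM149PT overlapped and did not pass (limma adjusted p = 0.20), but without SUM149PT siCtrl replicate 2 the difference was -1.35 with a limma adjusted p of 0.014.

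NRG1, a ligand of ERBB3 and ERBB4, covers 1129 kb of chromosome 8 and has 22 annotated transcripts, of which 18 are coding. Its probes can thus read different transcripts, and the exon that each covers was not determined. They were read at very different levels. NRG1_27601 read 5046, 12539 and 10902 normalized counts in BT549, 228, 221 and 125 in Hs578T and 0, 5.47 and 1.60 in SUM149PT. The 3 lines did not overlap, and BT549 stood 49.6-fold above Hs578T (log2 difference -5.57 for Hs578T minus BT549, SE 0.67, limma adjusted p = 0.00036). NRG1_27602 had means of 3422, 58.6 and 1.82 in BT549, Hs578T and SUM149PT, and NRG1_27598 had 2715, 33.2 and 0.533. NRG1_22037 had means of 666 in BT549 and 72.7 in Hs578T and no read in any SUM149PT library, a difference of 9.16-fold between the first pair and of at least 169-fold to the SUM149PT floor. NRG1_27599 was read at a mean of 49.1 in BT549 and 3.47 in Hs578T. ERBB3, the receptor, thus had no read in the line with the highest NRG1 levels and was highest in the line with the lowest.

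Over these comparisons of siCtrl libraries, Hs578T was lower than BT549 in 6 of the 12 tested probes and higher in 0 (13.9% of 10255 probes were called, 7.58% higher and 6.28% lower). SUM149PT differed from BT549 in 10 of 12, 4 higher and 6 lower (18.2% of all probes, 9.4% higher and 8.8% lower), and from Hs578T in 8 of 12, 4 higher and 4 lower (20.2%, 9.68% higher and 10.6% lower). Several of these probes passed the limit on low counts through 1 line alone. These were both AREG probes, EREG and ERBB3 through SUM149PT, and NRG1_27599 through BT549. A difference was thus built into their selection, and the counts are a description. NRG1_27598 and NRG1_27602 passed within both BT549 and Hs578T. The counts are of probes and not genes, and NRG1 and AREG have several probes each. The 6 probes lower in Hs578T than in BT549 were HBEGF_15347 and otherwise all of NRG1. The median log2 difference was -1.87, -2.61 and -0.63 over the member probes in these 3 comparisons, many of them of NRG1, and between -0.04 and 0.00 over all probes.

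The NRG1 probes did not keep the same proportions between the lines. This comparison was chosen after the values had been seen. The ratio of NRG1_27601 to NRG1_22037 reads within a library was 6.27 to 21.5 in the 6 BT549 libraries (median 13.8) and 0.887 to 3.10 in the 6 Hs578T libraries (median 1.68). No library of one line fell in the range of the other, and the difference was 2.82 on the log2 scale (two-sided exact permutation within treatment, p = 0.005, the smallest that 400 arrangements allow). The ratio of NRG1_27601 to NRG1_27602 had a median of 2.58 in BT549 and 3.55 in Hs578T with overlapping ranges (exact permutation p = 0.22).

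**Figure D3:**
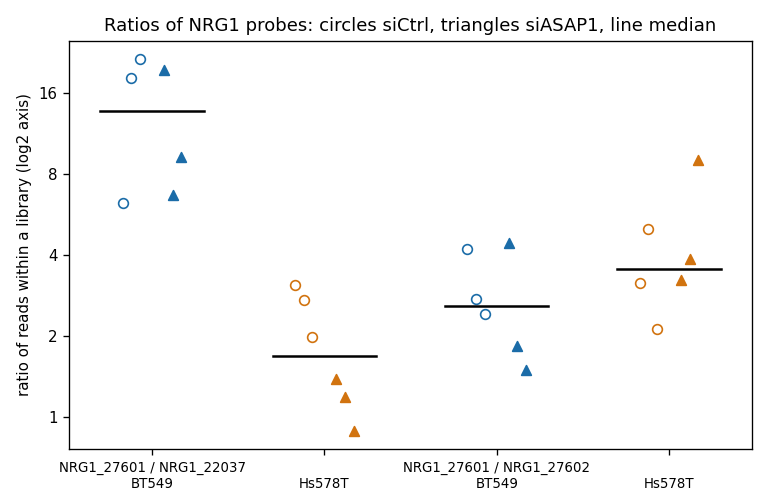
Ratio of reads of NRG1_27601 to those of NRG1_22037 (left) and NRG1_27602 (right) within each library (y axis, log2 axis) in BT549 and Hs578T, with 1 point per library, open circles for siCtrl, triangles for siASAP1 and a line at the median of 6. The left ratio separates the lines, with medians of 13.8 and 1.68, and the right ratio does not.

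The effect of silencing ASAP1 was then tested in each line on its 6 libraries, with the limits of the study (unadjusted p under 0.05 and an absolute log2 fold change over 1). Few members were called. In BT549, 0 of 8 probes were called (6.97% of all 9666 probes tested, 3.28% higher and 3.69% lower). In Hs578T 2 of 7 were called, both of NRG1 and both lower (2.78% of 9500 probes, 1.34% higher and 1.44% lower). In SUM149PT 1 of 7 was called, AREG_19834, which was lower (9.56% of 10078 probes, 5.27% higher and 4.29% lower). At an adjusted p under 0.05 limma called 0 members in each line, as it did of all probes, and 0, 2 and 1 member probes had an unadjusted p under 0.05 (7.8%, 5.28% and 10.2% of all probes). The median log2 fold change of the members was -0.47, -0.37 and 0.07 in BT549, Hs578T and SUM149PT, against 0.00, 0.01 and 0.09 over all probes. Where libraries were scaled by their totals alone, the median of all probes moved to 0.29 in SUM149PT and to 0.12 in Hs578T, so small shifts in these lines depend on the scaling.

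EGFR did not change past the limits in any line. In BT549 it read 1207, 1402 and 1300.3 normalized counts with siASAP1 against 759, 1480 and 1361 with siCtrl. Its log2 fold changes of 0.18 (BT549), -0.17 (Hs578T) and -0.09 (SUM149PT) had 95% confidence intervals of -0.64 to 0.99, -1.25 to 0.92 and -0.95 to 0.78. Without SUM149PT siCtrl replicate 2 the last was -0.10. Over the 18 libraries it was -0.03 (95% confidence interval -0.51 to 0.46, limma adjusted p = 0.97), with a sign that turned under library totals (0.10). ERBB2 had log2 fold changes of -0.13, -0.37 and 0.93 in the 3 lines. In SUM149PT it read 61.8 to 138 with siASAP1, and without siCtrl replicate 2 its change was 0.10. ERBB3 read 63.5, 25.6 and 32.9 with siASAP1 in SUM149PT, a log2 fold change of 0.07 (95% confidence interval -1.55 to 1.68) and of 0.31 without siCtrl replicate 2. In Hs578T it had 1 read over the 3 siASAP1 libraries, against 1 to 5 in each siCtrl library, too few to test.

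**Figure D4:**
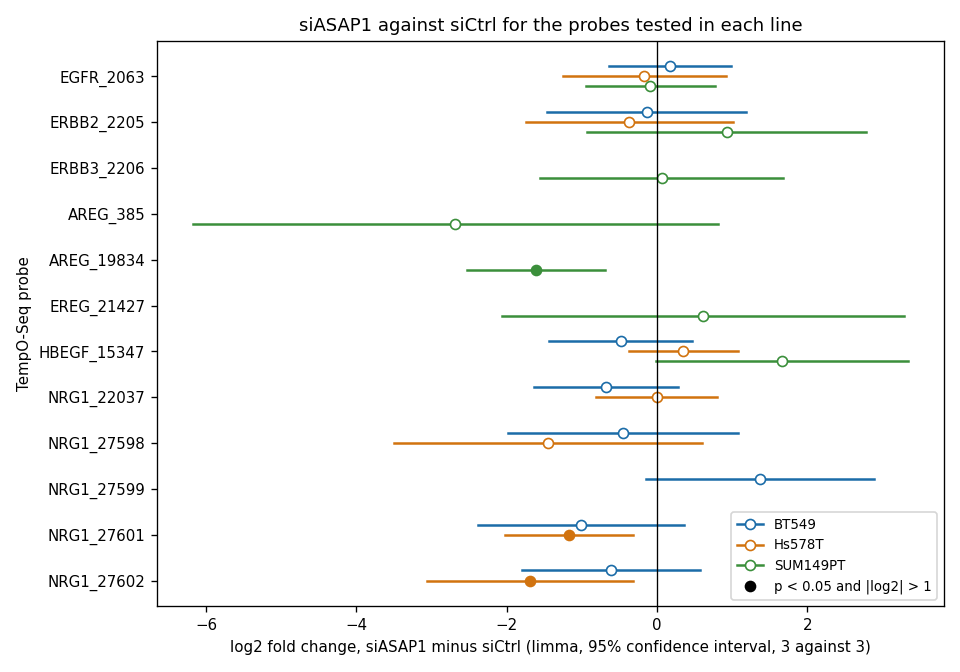
Log2 fold change of siASAP1 against siCtrl (x axis, limma, with the 95% confidence interval) for each member probe tested (y axis), by cell line, with filled points for p under 0.05 and an absolute log2 fold change over 1. The filled points are AREG_19834 in SUM149PT (-1.61) and NRG1_27601 (-1.17) and NRG1_27602 (-1.69) in Hs578T, and EGFR lies near 0 in all lines.

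AREG was the member with the most uniform change. In SUM149PT, AREG_19834 read 112, 115 and 131 normalized counts with siASAP1 and 326, 379 and 401 with siCtrl. All 3 siASAP1 libraries lay below all siCtrl libraries, at 32.5% of their mean, as in 8.41% of all probes in that line. The log2 fold change was -1.61 (SE 0.40, limma adjusted p = 0.33). The two-sided exact permutation p was 0.1, the smallest that 3 against 3 libraries allow, and the change met the limits whichever library was left out (-1.70 to -1.55). The library labelled siCtrl replicate 2 was close to the other siCtrl libraries in this probe although its ASAP1 was low, and without it the change was -1.59. Scaled by library totals it was -1.40. AREG_385, read 0 to 33 times in siASAP1 and 12 to 232 times in siCtrl libraries, had a log2 fold change of -2.68 (limma adjusted p = 0.59), which was -1.71 without siCtrl replicate 2. With the reads of both probes added, AREG had a log2 fold change of -1.70 (SE 0.41, limma adjusted p = 0.33).

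EREG, the neighbor of AREG, did not follow it. It read 34.4, 14.1 and 77.5 normalized counts with siASAP1 against 7.15, 116 and 11.2 with siCtrl, overlapping groups with a log2 fold change of 0.62 (limma adjusted p = 0.88) that became 1.80 (limma adjusted p = 0.28) without siCtrl replicate 2. HBEGF_15347 in SUM149PT read 1256, 259 and 1092 with siASAP1 against 120, 428 and 216 with siCtrl. Replicates 1 and 3 of siASAP1 were higher than all siCtrl libraries, while replicate 2 was not. The log2 fold change was 1.66 (SE 0.73, 95% confidence interval -0.02 to 3.34, limma adjusted p = 0.49), which missed the limits. It met them without siCtrl replicate 2 (2.13, limma adjusted p = 0.11), where 14.3% of all probes were called higher, against 5.27% with it. HBEGF_15347 also met the limits without siASAP1 replicate 2 (2.39, limma adjusted p = 0.40). In the same libraries ASAP1 read 282, 468 and 184 with siASAP1 and 1087, 189 and 1314 with siCtrl. In BT549 HBEGF read 6076, 2460 and 1944 with siASAP1 (log2 fold change -0.48, limma adjusted p = 0.73), and in Hs578T 559, 379 and 686 (0.35, limma adjusted p = 0.92).

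Markers of the line moved with siASAP1 in SUM149PT as well. Of the basal-like epithelial list 2 of 5 tested probes were called, CDH1 (log2 fold change 1.24) and KRT17 (1.54), both higher, as were 5.27% of all probes. The rest of that list did not move as a group. EPCAM (mean 29532 with siCtrl and 20698 with siASAP1) and TP63 (167 and 77.2) were lower without a call. KRT5 (26.0 and 46.4) was higher without a call. Of the mesenchymal-like list 3 of 5 were called higher, all of FN1, and VIM_18185 lower (-1.48), as were 4.29% of all probes. Without siCtrl replicate 2, CDH1 (1.35), KRT17 (1.08), VIM_18185 (-1.67) and 2 of the 3 FN1 probes were still called. In that fit 14.3% of all probes were called higher and 8.78% lower. The summed level of the epithelial markers was 21401 to 38860 normalized counts in siCtrl and 22009 to 28001 in siASAP1 libraries, that of the mesenchymal markers 5709 to 7075 and 9892 to 11847. Their part in the AREG result was not tested.

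In Hs578T the lower transcript was NRG1. NRG1_27601 read 107, 75.7 and 67.2 normalized counts with siASAP1 against 228, 221 and 125 with siCtrl, and NRG1_27602 read 32.9, 19.7 and 7.46 against 72.6, 44.1 and 59.1. Neither probe overlapped between the groups, as in 5.78% of all probes toward lower values. The log2 fold changes were -1.17 (SE 0.38) and -1.69 (SE 0.61), with a limma adjusted p of 0.91 and an exact permutation p of 0.1 for each. Both missed the limits without siCtrl replicate 1 (-1.02 and -1.52), and NRG1_27602 also without siASAP1 replicate 3 (-1.14). NRG1_22037 read 77.1, 64.2 and 75.7 with siASAP1 against 73.4, 81.6 and 63.1 with siCtrl, a log2 fold change of 0.00 (95% confidence interval -0.81 to 0.80). The ratio of NRG1_27601 to NRG1_22037 was thus 1.38, 1.18 and 0.887 with siASAP1 and 3.10, 2.71 and 1.98 with siCtrl. With the reads of all NRG1 probes added, the log2 fold change was -0.91 (SE 0.32, limma adjusted p = 0.89), under the fold limit.

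In BT549, NRG1_27601 read 13238, 2561 and 2468 normalized counts with siASAP1 against 5046, 12539 and 10902 with siCtrl. Replicate 1 of siASAP1 stood far above the other 2, as it did for HBEGF_15347, and its ASAP1 level was the lowest of the 6 libraries. The log2 fold change was -1.01 (SE 0.62, limma adjusted p = 0.67), and without that replicate it was -1.81 (limma adjusted p = 0.045). NRG1_27599 had the other sign, with 247, 64.2 and 84.9 against 17.5, 59.7 and 70.2 and a log2 fold change of 1.37 (limma adjusted p = 0.65). The ratio of NRG1_27601 to NRG1_27599 reads was 53.6, 39.9 and 29.1 with siASAP1 and 289, 210 and 155 with siCtrl, without overlap. This ratio was picked after its values had been seen and was not tested, and NRG1_27599 rests on 14 to 278 reads per library.

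Over the 18 libraries, with the line as a covariate, limma called 0 of the 12 member probes at an adjusted p under 0.05 (1.74% of 10475 probes were called), and 2 had an unadjusted p under 0.05 (15.8% of all probes). These were NRG1_27601 (log2 fold change -1.18, SE 0.37, limma adjusted p = 0.11) and NRG1_27602 (-0.93, SE 0.44, limma adjusted p = 0.30). Without BT549 siASAP1 replicate 1 the first had a limma adjusted p of 0.038. A difference of the effect between the lines was called for 0 of 12 (0.00955% of all probes), with 1 at an unadjusted p under 0.05 (6.22% of all probes). The smallest was that of HBEGF_15347 (limma adjusted p = 0.80), while NRG1_27601 had a limma adjusted p of 1.00. AREG had no read in BT549 and Hs578T, so its effect cannot be compared between lines.

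The remaining parts of the pathway were followed by 5 lists with 64 genes, chosen by function. In BT549, 8 of 55 probes were called higher and 2 lower, in Hs578T 2 and 1 of 55, and in SUM149PT 6 and 2 of 58. Over all probes 3.28% were called higher and 3.69% lower in BT549, 1.34% and 1.44% in Hs578T and 5.27% and 4.29% in SUM149PT. Without SUM149PT siCtrl replicate 2 the counts of that line were 15 and 6 of 58, beside 14.3% and 8.78% of all probes. Medians were 0.10, 0.09 and 0.12 on the log2 scale, against 0.00, 0.01 and 0.09 over all probes. Among the other ligands of the family, EGF itself was called higher in 2 lines. It read 71.7, 93.8 and 56.2 normalized counts with siCtrl and 178, 229 and 187 with siASAP1 in Hs578T (log2 fold change 1.43, SE 0.34, limma adjusted p = 0.71), and 0, 9.11 and 0 against 103, 53.8 and 53.9 in SUM149PT (4.97, SE 1.21, limma adjusted p = 0.33). EGF met the limits in both lines whichever library was left out (6.09 in SUM149PT without siCtrl replicate 2). In a single fit of the 18 libraries the call in Hs578T was lost (limma adjusted p = 1.00). The SUM149PT siCtrl libraries were at or near 0, so that value is no measure of a fold. Over the 18 libraries its log2 fold change was 2.49 (limma adjusted p = 0.068). Of the other list members, NRG2 was tested in BT549, and EPGN and NRG4 in SUM149PT, without a call, although NRG4 met the limits without siCtrl replicate 2 (3.52). NRG3 had no read in any library.

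Among the genes of ligand release, the protease ADAM10 was lower in BT549 (-1.51, limma adjusted p = 0.63), where it read 572, 125 and 74.8 with siASAP1 against 584, 538 and 396, and RHBDF1, a cofactor of ADAM17, was higher in SUM149PT (1.21, limma adjusted p = 0.44, and 1.12 without siCtrl replicate 2). Of 26 adaptors and effectors, SOS2, an exchange factor that activates RAS, was higher in Hs578T (2.97, limma adjusted p = 0.91) and SUM149PT (3.19, limma adjusted p = 0.38, and 4.01 without siCtrl replicate 2), and it was the single gene of the lists with an adjusted p under 0.05 over the 18 libraries (2.65, SE 0.66, limma adjusted p = 0.048). It read 0 to 37.2 normalized counts with siCtrl and 27.8 to 175 with siASAP1. Its call over the 18 libraries was lost in 14 of the 18 fits that left out a library (limma adjusted p from 0.026 to 0.098 over all 18). GRB2, the adaptor that binds SOS proteins, was called higher in SUM149PT (2.29, limma adjusted p = 0.47, and 3.25 without siCtrl replicate 2), and the difference between lines did not pass for GRB2 or SOS2 (limma adjusted p = 0.85 and 0.98). Of the negative regulators, LRIG1, which promotes receptor degradation, was called higher in BT549 (1.67, limma adjusted p = 0.41) and SOCS5 lower (-3.67, limma adjusted p = 0.64). SOCS5 read 140, 0 and 0 normalized counts with siASAP1 against 83.6, 69.8 and 47.7 with siCtrl. Its siASAP1 replicate 1 thus stood above every siCtrl library, and the call rests on the 2 siASAP1 libraries without reads. In SUM149PT LRIG1 had the other sign (-1.57, limma adjusted p = 0.51) without meeting the limits, but it met them without siCtrl replicate 2 (-1.99), without siASAP1 replicate 2 (-2.20) and in a single fit of 18 libraries. Without siCtrl replicate 2, 8.78% of all probes were called lower in that line. The difference of the LRIG1 effect between lines had a limma adjusted p of 0.20.

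Transcripts known to follow ERK activity were called most often in BT549, where 7 of 15 probes were higher and 0 lower (3.28% of all probes were called higher). Their median log2 fold change was 1.37. The 7 were DUSP6 (2.66), EPHA2 (2.66), IER3 (1.70), DUSP5 (1.55), DUSP4_27145 (1.42), ETV5 (1.35) and FOSL1 (1.33), of which the DUSP genes encode phosphatases that act on MAP kinases, ETV5 and FOSL1 transcription factors, EPHA2 a receptor kinase and IER3 an immediate early protein. Apart from ETV5 and FOSL1, they are named after their values were seen. EPHA2 had 3 to 6 reads in each BT549 siCtrl library, near the 3-read floor, so its value is no measure of a fold. DUSP4_27145 read 1293, 1284 and 1580 with siASAP1 against 573, 508 and 470 with siCtrl, and DUSP6 read 32.9, 61.4 and 99.5 against 11.2, 10.7 and 4.91. None had an adjusted p under 0.05 (limma adjusted p = 0.32 to 0.63). The count fell to 4 without siCtrl replicate 2 and without siASAP1 replicate 3, with 0 lower in every fit. In Hs578T 0 of 14 were higher and 1 lower (1.34% and 1.44% of all probes), ETV4 (-3.27, limma adjusted p = 0.92), with 0 reads in 2 of the 3 siASAP1 libraries. In SUM149PT 2 of 15 were higher and 2 lower (5.27% and 4.29% of all probes). The higher probes were DUSP4_1990 (3.05, and 3.74 without siCtrl replicate 2) and FOSL1, which read 423, 326 and 482 against 106, 216 and 126 (1.80 on the log2 scale without that library). DUSP4_27145, which had more reads, was not called in SUM149PT. Its means were 6701 with siASAP1 and 3601 with siCtrl (0.89 on the log2 scale without siCtrl replicate 2), against 805 and 110 for DUSP4_1990. In BT549 DUSP4_1990 was not called (1.61, limma adjusted p = 0.66). The lower probes were ETV5 (-1.31) and SPRY1 (-2.24), an inhibitor of RAS signaling, with -1.32 and -2.64 without siCtrl replicate 2. With library totals the SUM149PT counts were 3 higher and 0 lower. Without siCtrl replicate 2 they were 4 and 2, beside 14.3% and 8.78% of all probes.

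**Figure D5:**
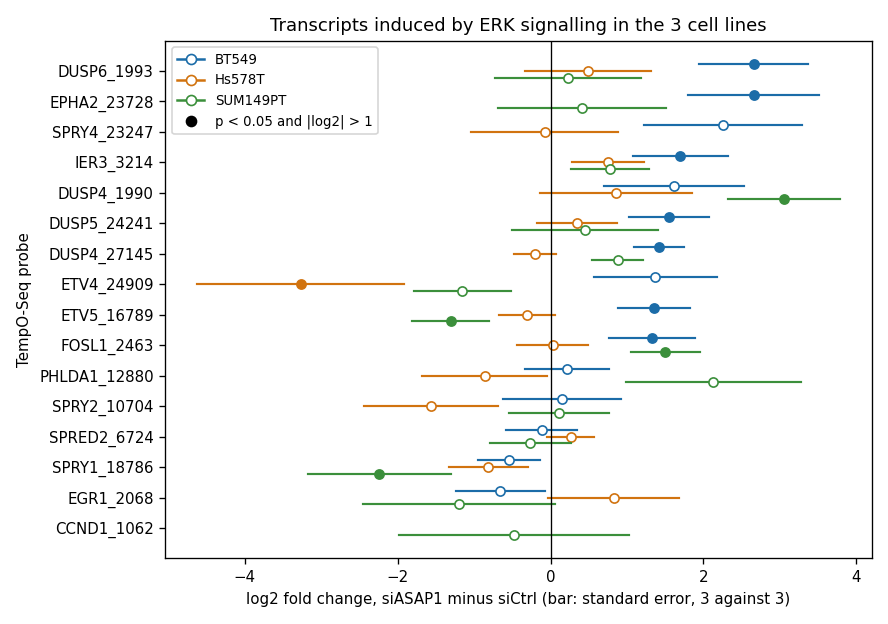
Log2 fold change of siASAP1 against siCtrl (x axis, bars for the standard error, 3 against 3 libraries) of probes for transcripts that follow ERK activity (y axis), by cell line, with filled points for p under 0.05 and an absolute log2 fold change over 1. The 7 filled points of BT549 all lie above 0, while SUM149PT has 2 on each side and Hs578T 1 below 0.

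Probes of other genes with the closest pattern were sought by Pearson's r of log2 values over the 18 libraries, among up to 10474 probes. EGFR was closest to NRG1_27599 (r = 0.86), JARID2 (0.86) and FNDC3B (0.84), and AREG_19834 to ALX4 (1.00), FREM2 (1.00) and FAM83F (0.99). HBEGF_15347 was closest to SLC9A7 (0.94), MSTN (0.93) and RNF14 (0.93), and NRG1_27601 to ZNF280B (0.99), ABI3BP (0.99) and PRUNE2 (0.98). The 18 points share 3 cell lines and fall into clusters by line, so these values describe differences between lines more than between libraries of a line.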

How the data were processed

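TempO-Seq libraries of 3 TNBC lines (18 samples, assigned to line, siRNA and replicate by the labels) were used as deposited. The authors assigned reads to 21111 probes, divided them by the size factor of DESeq2, added 1 and deposited log2 values. bcl2fastq, Bowtie and DESeq2 are named in the submitters' processing notes, and their versions and the genome build are not given in the sources used here. When the log2 was undone, 100% of values were whole reads (within 0.02 reads), with 4.63 to 12.5 M reads per library. Counting error is thus smallest for the members with most reads, and a floor of 3 reads per library was used for absent ones. Floors cover counting error only.

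Tests used limma 3.58.1 (lmFit, eBayes with trend) in R 4.3.3, keeping probes whose normalized counts averaged 10 or more. The log2 values were tested, since they are the unit deposited. Each line was fitted on its 6 libraries, the common effect and the interaction on 18, and the levels of siCtrl libraries across lines on 9. P-values were two-sided and adjusted by the Benjamini-Hochberg method over all probes tested. Replicates are called biological triplicates by the study, and p-values measure the spread between these samples. Fold changes are on the log2(normalized count + 1) scale, which understates those of low probes. Fits were tested on simulated data.

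The members and lists were chosen with earlier results of these data known. Named by rule were all 10 members, ASAP1, list genes that met the limits in at least 2 lines or over the 18 libraries, and the 3 probes closest to EGFR, AREG, HBEGF and NRG1. Counted by probe, the list genes that met this rule were EGF, ETV5, FOSL1 and SOS2. The other genes of the 5 lists are named outside it, after their values were seen. Alternatives were TMM scaling, library totals, no filter, a minimum of 50, a pseudocount of 0.1, voom weights, the replicate number as a block, a single fit of 18 libraries, adjusted calls, siASAP1 libraries for the levels, and each library left out. Summing the probes of a symbol was added after the data were seen. Gene positions came from GENCODE release 29 and promoters from RefSeq. Figures were made by matplotlib 3.10.9 (Python 3.11.15).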

Additional observations from a re-analysis of the deposited data

Results flagged for a closer look

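ETV5, a transcription factor induced by ERK signaling, moved in opposite directions in 2 lines, with every siASAP1 library on one side of every siCtrl library in each. In BT549 it read 139, 121 and 180 normalized counts with siASAP1 against 84.9, 44.6 and 46.3 with siCtrl (log2 fold change 1.35, SE 0.47), and in SUM149PT 34.4, 46.2 and 60.5 against 116, 114 and 115 (-1.31, SE 0.50). In SUM149PT 8.41% of all probes had every siASAP1 library below every siCtrl library, and the share above was not counted in BT549. The difference of the ETV5 effect between the lines had a limma adjusted p of 0.20 over all probes, so it did not pass the threshold. The change missed the limits in 3 of the 6 fits of BT549 and 4 of the 6 fits of SUM149PT that left out a library. SUM149PT siCtrl replicate 2 stood with the other siCtrl libraries here, and without it the change was -1.32.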

How the results depend on the processing

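Of the single-probe results, 583 kept their direction and side of the threshold under settings that left out no library, 9 changed sign, 7 passed in addition and 4 no longer passed, and for the fits without 1 library these numbers were 840, 30, 11 and 7. The number of members called in Hs578T was 2, and it was 0 with adjusted calls, 1 with a minimum of 50, 1 with a single fit of 18 libraries, 0 with probes of a symbol summed and 0 to 3 with a library left out. In SUM149PT it was 1, and it was 0 with adjusted calls, 2 with library totals, 3 with the single fit and 1 to 3 with a library left out. The share of all probes called higher in SUM149PT moved as well. That share was 5.27% in the main fit, 7.48% with library totals and 7.96% with the single fit. With a library left out it was 2.31% to 14.3%. A change in the number of members called is thus not a result about the members alone. The number called in BT549 was 0 (0 to 2 with a library left out), over the 18 libraries 0 (1 with voom weights, which was AREG_19834, and 0 to 1), for the difference between lines 0 (0 to 0) and for siCtrl levels 24 of 36 (11 of 21 with probes summed, 23 to 25). This last count is a description. It includes both AREG probes, EREG, ERBB3 and NRG1_27599, which passed the limit on low counts through 1 line alone. Over all probes 13.9% (Hs578T minus BT549), 18.2% (SUM149PT minus BT549) and 20.2% (SUM149PT minus Hs578T) were called between siCtrl libraries. The cause of changes in these counts was not tested.

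Same-numbered siASAP1 and siCtrl libraries had correlated deviations of -0.39 to 0.14 in BT549, 0.10 to 0.42 in Hs578T and -0.66 to -0.33 in SUM149PT, so the numbers were not taken as pairs. With the replicate number as a block, 2 members were called in SUM149PT, AREG_19834 and AREG_385, and the counts of members in the other comparisons moved by less than 1.5 times. Of all probes in SUM149PT, 1.93% were called higher with the block, against 5.27% without it. With the block 1 ERK transcript was higher and 1 lower in SUM149PT, against 2 and 2 without it, and SOS2 over the 18 libraries had a limma adjusted p of 0.099. In Hs578T, but not in the other lines, every library correlated best with its own number.

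Signs turned for values near 0. With library totals NRG1_22037 in Hs578T was 0.11, EGFR in SUM149PT 0.13 and EGFR over the 18 libraries 0.10, with voom weights ERBB3 in SUM149PT was -0.024, and with a pseudocount of 0.1 NRG1_27599 over the 18 libraries was -0.091. ERBB2 in SUM149PT minus BT549 was -0.045, -0.13 and -0.22 with TMM, library totals and voom weights, and HBEGF_15347 in SUM149PT minus Hs578T was 0.43 in the siASAP1 libraries. With a library left out, EGFR ranged from -0.13 to 0.36 in BT549, -0.55 to 0.36 in Hs578T, -0.23 to 0.093 in SUM149PT and -0.13 to 0.13 over the 18 libraries. ERBB2 ranged from -0.58 to 0.20 in BT549, -0.86 to 0.16 in Hs578T and -0.15 to 0.33 over the 18. ERBB3 and EREG ranged from -0.37 to 0.34 and -0.12 to 1.80 in SUM149PT, EREG from -0.034 to 0.51 and NRG1_27599 from -0.030 to 0.51 over the 18, NRG1_27598 from -1.32 to 0.029 in BT549 and NRG1_22037 from -0.10 to 0.082 in Hs578T. Between siCtrl libraries ERBB2 ranged from -0.90 to 0.12 (Hs578T minus BT549), -0.57 to 0.85 (SUM149PT minus BT549) and -0.20 to 1.22 (SUM149PT minus Hs578T), and EGFR from -0.70 to 0.14 in the latter. At these depths, the members with few reads per library (ERBB2, ERBB3, ERBB4, EREG, BTC and TGFA) limit what 3 libraries can show.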
